A study of Mus musculus with 2 samples.

Results

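Ccl21b, Ccl21c and Ccl28 are 3 chemokine genes whose transcripts were measured in RNA of mouse left and right kidney. They were taken as all probes, other than controls, that carry the RefSeq accession of one of these genes (NM_011335 for Ccl21b, NM_023052 for Ccl21c and NM_020279 for Ccl28). This gave 3 probes of 59701 that had a usable spot, and 3 of the 112 genes that could be named through such an accession. Each of the 3 probes was printed in 1 spot per array. The kidneys came from male mice, and no strain, age, allele or treatment is given in the sources used here. The series description was read as 3 left kidneys mixed into 1 sample and 3 right kidneys mixed into the other, though its wording does not settle this. Each pool was put on 1 Agilent array of 1 colour, so the only comparison is the left pool against the right pool. Neither pool was measured a second time, so no test was possible and each value describes these 2 arrays. Side, pool, labelling and array cannot be told apart.

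Chemokines are small secreted proteins that direct the movement of leukocytes through receptors coupled to G proteins. CCL21, made in lymph nodes and by lymphatic endothelium, draws T cells and dendritic cells through the receptor CCR7. The mouse carries several near-identical copies of its gene in a duplicated stretch of chromosome 4 that also holds genes for CCL19 and CCL27. CCL28 is made by epithelia of mucosae and glands, and attracts cells that carry CCR10 or CCR3, among them plasma cells making IgA. In whole kidney RNA, fewer cells of a type and less RNA per cell cannot be told apart.

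Some of the Ccl21 copies are nearly identical in the DNA before their starts, as Gm13304, Gm10591, Ccl21a and Ccl21d show. RefSeq's gene table of GRCm38.p6 lists 6 genes that are called Ccl21a, Ccl21b or Ccl21c or carry Ccl21b, Ccl21c or 6Ckine among their older names, all on chromosome 4. Of these 6, Ccl21b, Ccl21c and Gm13304 had a named probe, while Ccl21a, Ccl21d and Gm10591 had none. Promoter sequences were in RefSeq's table for 2 of the 3 chemokine genes, Ccl21b and Ccl28, and for 4 further Ccl21 copies. The 250 bases before the start are printed 5′ to 3′ on the gene's strand. In the pair Gm13304 (chr4:42114537-42114786, plus strand) and Ccl21a (chr4:42773992-42774241, minus strand), capitals mark the positions at which Gm13304, Ccl21a and Ccl21d are not all alike.
Gm13304: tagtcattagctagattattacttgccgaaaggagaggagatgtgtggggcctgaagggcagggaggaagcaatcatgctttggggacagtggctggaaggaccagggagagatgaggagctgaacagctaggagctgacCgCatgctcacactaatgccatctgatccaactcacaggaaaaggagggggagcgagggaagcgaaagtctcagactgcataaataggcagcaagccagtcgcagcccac
Ccl21a: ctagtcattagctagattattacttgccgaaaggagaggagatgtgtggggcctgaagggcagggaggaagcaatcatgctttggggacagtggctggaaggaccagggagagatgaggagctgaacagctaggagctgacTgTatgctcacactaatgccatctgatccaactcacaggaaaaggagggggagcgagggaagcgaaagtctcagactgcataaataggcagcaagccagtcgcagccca
Counted from 1 at the 5′ end of the Gm13304 sequence, Ccl21a differed by C141T and C143T, and 247 of 249 aligned bases were identical (99.2%). Ccl21d differed from Gm13304 by C143T alone, and Gm10591 was identical to Gm13304 over all 250 bases. The sequences of the array probes were not used here, so which copies each Ccl21 probe can bind was not tested. Signals of the Ccl21b, Ccl21c and Gm13304 probes are therefore uncertain as to the copy they measure.

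The stretch before the listed start of Ccl21b was of another kind. RefSeq's Ccl21b gene spans 83706 bases, against 1131 for Ccl21c, Gm13304, Gm10591 and Ccl21d, so this start may not be that of the transcript on the array. The window (chr4:42172870-42173119, plus strand) is shown because it belongs to a measured chemokine gene and is without any of the motifs searched, hence without capitals.
Ccl21b: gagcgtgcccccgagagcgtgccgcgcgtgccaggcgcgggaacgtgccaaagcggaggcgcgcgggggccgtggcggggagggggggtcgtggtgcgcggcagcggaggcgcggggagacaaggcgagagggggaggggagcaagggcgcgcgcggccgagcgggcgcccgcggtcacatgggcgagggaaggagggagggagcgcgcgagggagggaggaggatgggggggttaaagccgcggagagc
Its share of G and C was 78.0%, and 2.14% of the 32851 promoters in the table had as high a share or a higher one. The share was 53.6% in Gm13304 and 50.8% in Ccl28, near the median of 52.4% over all promoters. Ungapped, 33.1% of 248 aligned bases matched between Ccl21b and Gm13304.

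The Ccl28 promoter (chr13:119623569-119623818, plus strand) is printed as that of the chemokine gene with the largest left-right difference of the 3. Capitals mark a GC box.
Ccl28: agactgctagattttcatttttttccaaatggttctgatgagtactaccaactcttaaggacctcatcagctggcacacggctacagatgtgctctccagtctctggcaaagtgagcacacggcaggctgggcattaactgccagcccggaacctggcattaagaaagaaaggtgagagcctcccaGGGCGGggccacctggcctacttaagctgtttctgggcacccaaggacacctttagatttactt
The promoters were searched on both strands for the GC box, spelled GGGCGG. The TATA box was searched as TATAAA and the AP-1 motif as TGANTCA, besides the NF-kB motif. The GC box was matched 1 time in Ccl28, and 32.7% of all promoters hold it. None of the 4 motifs was matched in the Ccl21b, Ccl21a, Ccl21d, Gm13304 or Gm10591 windows. Only full matches to the letters were counted, so a variant of a motif, such as one like the TATA box, would be missed. Among all promoters the TATA box letters occurred in 12.4%, those of AP-1 in 6.75% and those of NF-kB in 3.9%.

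All 3 chemokine probes gave clear signal with kidney RNA. Well above background, by the scanner software's flag, were all 3 probes on both arrays, as were 59.2% of all probes. The processed signal, an intensity corrected for background within the array, was 4209 for the Ccl21b probe on the left and 4641 on the right. That was 127 and 170 times the lowest signal of any probe well above background on the same array. The Ccl21c probe read 4668 on the left and 5475 on the right, or 140 and 201 times that lowest signal. The Ccl28 probe read 3046 on the left, 91.6 times it, and 4226 on the right, 155 times it. By processed signal, each probe was thus brighter on the right array, and Ccl28 by the widest margin.

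**Figure D1:**
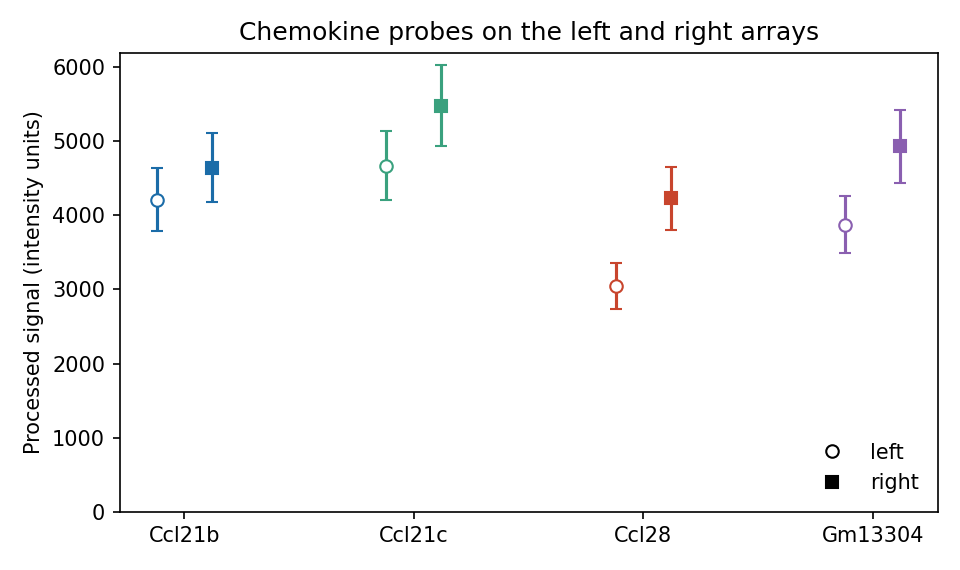
Processed signal, in intensity units, of the Ccl21b, Ccl21c, Ccl28 and Gm13304 probes on the left array (open circles) and the right array (filled squares), 1 spot each. Bars are the scanner software's error estimate for that spot, not a replicate error. After rounding, this estimate was the same percentage of the signal for each spot shown. The bars of left and right overlap for Ccl21b and Ccl21c and are apart for Ccl28 and Gm13304.

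Raw readings gave the same order of the sides. The median pixel value of the Ccl28 spot was 3088 over a local background of 46 on the left and 4135 over 42 on the right. The Ccl21b spot read 4263 over 44 on the left and 4729 over 39 on the right, and the Ccl21c spot 4834 over 41 and 5632 over 42. Local backgrounds were a small fraction of each spot's reading, and differed between sides by at most 5 units.

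On a scale of log2 signal minus the 75th percentile of the array, levels lay between 2.80 and 3.65. Ccl21b stood at 3.27 on the left and 3.41 on the right, Ccl21c at 3.42 and 3.65, and Ccl28 at 2.80 and 3.28. Among the 59701 probes, signal ranked Ccl21b 5775th on the left and 5389th on the right, which is the top 9.67% and 9.03%. Ccl21c ranked 5502nd and 4970th (top 9.22% and 8.32%), and Ccl28 6694th and 5630th (top 11.2% and 9.43%). All 3 were thus among the brighter probes, and each ranked higher on the right. Signal also depends on how well a probe binds its target, so these ranks are not ranks of transcript amount, and the files give no transcript length to scale by.

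**Figure D2:**
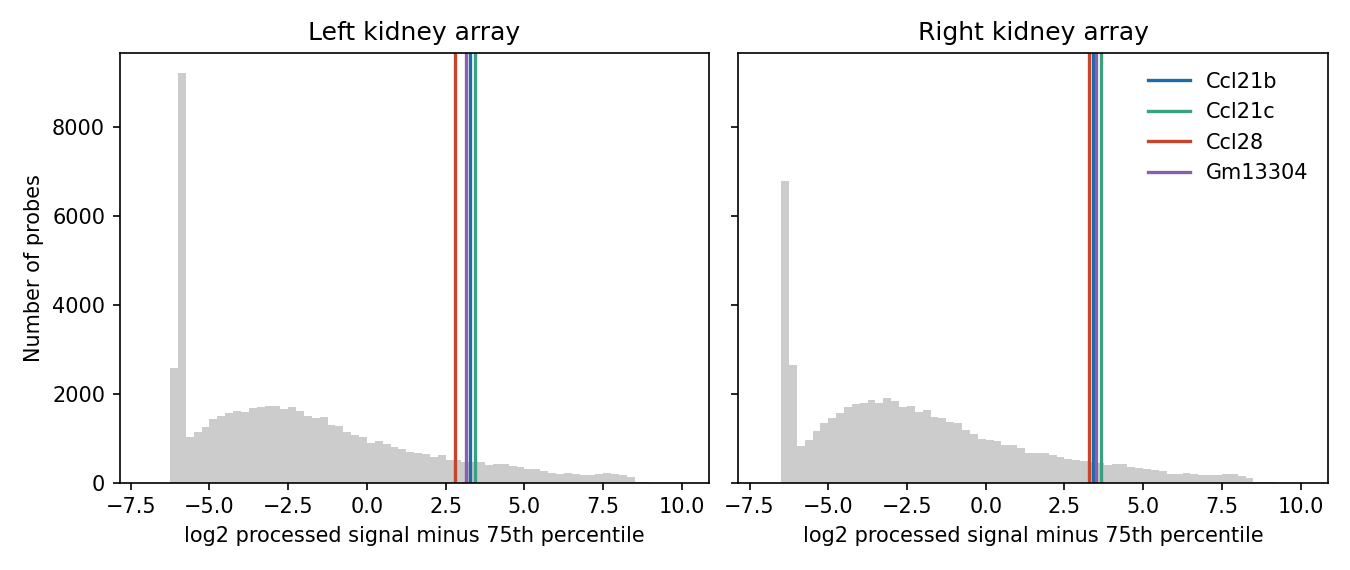
Number of probes (vertical axis) at each log2 processed signal minus the array's 75th percentile (horizontal axis) on the left and right arrays, in grey, with the Ccl21b, Ccl21c, Ccl28 and Gm13304 probes as coloured lines. All 4 lines stand in the bright tail, and the Ccl28 line lies lowest on both arrays, at 2.80 on the left and 3.28 on the right.

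By signal, the order on the left was Ccl21c, Ccl21b, Gm13304 and Ccl28. The step from Ccl21c to Ccl21b was 459 units, less than the software's combined error of 629. The step from Ccl21b to Gm13304 was also within that error, at 337 units against 572. The step from Gm13304 to Ccl28 was 826 units against 493. After rounding, this error was the same percentage of the signal for each of these probes, so it adds little beyond the ratio of the signals. It does not cover how well each probe binds, so the order is one of signals, not of genes. On the right the order was Ccl21c, Gm13304, Ccl21b and Ccl28, and each step was less than its combined error, with ratios of 0.74, 0.43 and 0.66. Neighbouring probes in the right order were therefore not separated by the error estimate.

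The difference between sides was largest for Ccl28. Its left minus right difference in log2 level was -0.48, a 1.39-fold higher signal on the right. Ccl21c had -0.23, a 1.18-fold higher signal on the right, and Ccl21b -0.14, a 1.11-fold higher one. None of the 3 reached 2-fold, a size reached in either direction by 1.08% of the 35367 probes above background on both arrays. Ccl28 alone of the 3 exceeded 1.2-fold towards the right, as did 13.1% of all these probes. Ccl21c also passed 1.2-fold under quantile normalization (-0.30) and cyclic loess (-0.29). That all 3 were higher on the right is set beside a share of 47.5% over all these probes, and of 52.1% over the 71 named genes among them.

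Probes as bright as these leaned slightly the other way. Over the 1854 probes with a mean level between 2.79 and 3.79 the median left minus right difference was 0.06, and 36.8% were higher on the right. Among them 4.85% exceeded 1.2-fold towards the right, and 0.162% were 2-fold apart in either direction. The robust SD of their differences, from the median absolute deviation, was 0.177. This SD covers different probes on 1 pair of arrays and is no replicate error.

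Against single probes of like brightness, within 0.25 log2 of its mean level, each chemokine probe took a different place. The Ccl28 difference less the median of 964 such probes was -0.54, or -2.92 robust SDs, and 9 of them (0.93%) were as far to the right or farther. For Ccl21c it was -0.29, or -1.68 robust SDs, with 55 of 902 probes (6.1%) as far or farther. For Ccl21b it was -0.21, or -1.14 robust SDs, with 118 of 930 (12.7%). Among all 71 named genes Ccl28 was 4th, Ccl21c 12th and Ccl21b 22nd from the right-most difference. That order runs over genes of all levels, not of like brightness, and differences of dim probes spread more widely. Around a mean level of -3.0 the robust SD was 0.34, against 0.19 around 3.0.

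**Figure D3:**
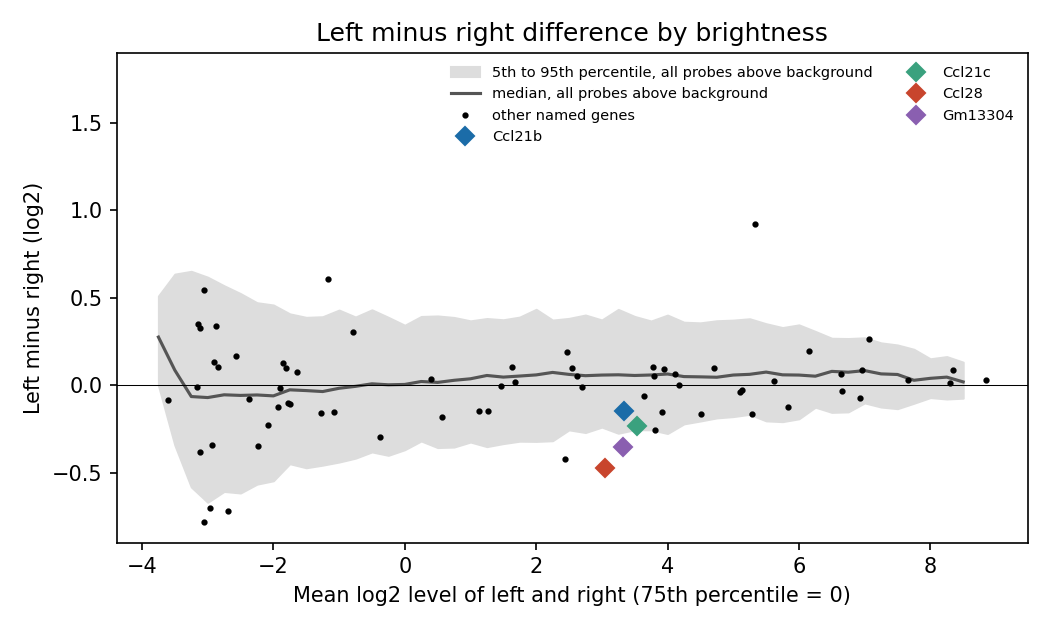
Left minus right log2 difference (vertical axis) against the mean log2 level of both arrays (horizontal axis), for named genes; the grey band spans the 5th to 95th percentile and the line the median of all probes above background in steps of brightness. The 4 coloured diamonds lie below 0, with Ccl28 lowest at -0.48.

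The scanner software gives each spot an error estimate, which on the left was 421 for Ccl21b, 467 for Ccl21c and 305 for Ccl28. On the right it was 464, 548 and 423. The Ccl28 signals differed by 1180 units, 2.26 times the combined error of 521. The Ccl21c signals differed by 808 units, 1.12 times the combined error of 720. The Ccl21b signals differed by 432 units, 0.69 times the combined error of 627, and so by less than the error. For Ccl21b, Ccl21c and Ccl28 the estimate was, after rounding, the same percentage of the signal on both arrays. These ratios therefore follow from the fold differences and are no separate measure of them. The estimate does not cover variation between mice, pools or labelling reactions.

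Genes printed in 20 spots per array show how closely repeated spots ran together, though none of the chemokines was among them. The nearest in brightness were Gusb, the lysosomal beta-glucuronidase, at a mean level of 3.78, and Tbp, the TATA-binding protein, at 2.62. The SD of their left minus right spot pairs was 0.064 (18 pairs) for Gusb and 0.044 (16 pairs) for Tbp. With spots flagged as outliers kept, it was 0.064 and 0.097 (20 pairs each). Differences of all 3 chemokines exceeded these SDs, which hold spot noise within 1 pair of pools and nothing of biological variation. Under median scaling the Ccl21b difference, at -0.096, did not exceed the 0.097 of Tbp. Gusb itself stood at 0.10 and Tbp at 0.05, both higher on the left. With flagged spots left out, both also exceeded their own SDs, so passing such an SD does not set the chemokines apart.

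The chemokine probes were also set against one another, beside the spread of single probes. The Ccl21b and Ccl21c differences were 0.09 apart, 0.36 times the combined robust SD of 0.25. Ccl28 lay 0.33 below Ccl21b and 0.24 below Ccl21c, 1.28 and 0.96 times the combined robust SD. Only the gap between Ccl28 and Ccl21b, of these 3 pairs, was wider than that spread.

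The probe of Gm13304, the further Ccl21 copy on the array, ran close to those of Ccl21b and Ccl21c. It read 3872 on the left and 4932 on the right, levels of 3.15 and 3.50. Its difference of -0.35 (1.28-fold higher on the right) lay between those of Ccl21c and Ccl28. The signals differed by 1.69 times the combined software error, a ratio that again follows from the fold difference. Of 926 probes of like brightness, 24 (2.59%) were as far to the right or farther. All 3 probes for Ccl21 copies were thus brighter on the right, by 1.11-fold to 1.28-fold. They may share targets, so they are not independent measurements of the sides.

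By distance over the levels on both arrays, Gm13304 was the named gene closest to Ccl21b (0.15) and to Ccl28 (0.41). The next closest to Ccl21b were Ccl21c (0.28) and Gm6710 (0.43). Ccl21c was closest to Gm6710 (0.20), then to Ccl21b (0.28) and Gm13304 (0.31). After Gm13304, Ccl28 was followed by Ccl21b (0.49) and Zf12 (0.58), at larger distances. Likeness here rests on 2 arrays alone, and Gm6710 and Zf12 had differences near 0, at -0.06 and -0.01.

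Genes near the Ccl21 copies on chromosome 4 did not all share the direction. In RefSeq's order, Gm13304 lies 5 places before Ccl21b, Gm13305 2 places before it, Gm21953 5 places after it and Fam205a2 14 places after it. Gm21953 read 994 on the left and 1099 on the right, a difference of -0.15. Less the median of its 18 nearest probes on the array (-0.134), the Gm21953 difference was -0.014. Of those 18 probes, 13 were higher on the right. Fam205a2 read 303 and 372, a difference of -0.30. Gm13305 read 21560 and 21162, a difference of 0.02, the only positive value among the 6 genes of this locus with a named probe. The Gm13305 difference turned negative under quantile normalization (-0.045), cyclic loess (-0.042) and normexp (-0.004).

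Hmgcs1 and Nim1k, the genes examined near Ccl28 on chromosome 13, did not show its difference, though Nim1k was too dim to say much. Hmgcs1, an enzyme of cholesterol synthesis 2 places after Ccl28, read 89391 on the left and 87421 on the right, a difference of 0.03. Nim1k, a protein kinase gene 3 places after Ccl28, was dim at 63.3 and 58.7, a difference of 0.11. Those signals were 1.9 and 2.2 times the lowest above background, and probes of like brightness had a robust SD of 0.33. Both genes were slightly higher on the left, and their signs turned under other processing. Hmgcs1 went to -0.041 under cyclic loess and Nim1k to -0.10 after correction for position.

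Position on the array was examined for each probe, through the 18 nearest probes above background. Around Ccl28 their median difference was 0.08, ranging from -0.40 to 0.48, so the Ccl28 difference lay outside its surroundings. Around Ccl21b the median was 0.04, and around Ccl21c it was -0.05, with both probes inside the range of their neighbours. Around Gm13304 the median was -0.13, with 14 of 18 neighbours higher on the right, and the Gm13304 difference less that median was -0.22. Each less the median of its own 18 nearest probes, Ccl28 stood at -0.56, Ccl21b at -0.18 and Ccl21c at -0.18.

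**Figure D4:**
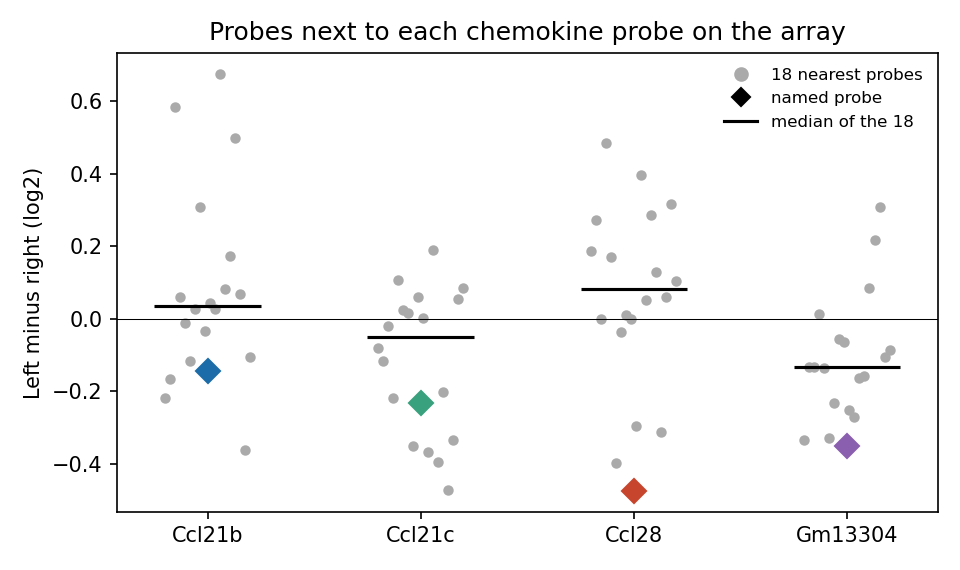
Left minus right log2 difference of each chemokine probe (diamond) and of its 18 nearest probes above background on the array (grey points, with a bar at their median). Ccl28 and Gm13304 lie below all 18 of their neighbours, while Ccl21b and Ccl21c lie within theirs.

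All 3 chemokines stayed higher on the right under the 6 other ways of processing. Among these, median scaling and the unscaled table shift the differences of all probes alike, so they say little about single probes. Ccl28 ranged from -0.56 to -0.43, Ccl21c from -0.30 to -0.18 and Ccl21b from -0.21 to -0.10. Median scaling gave the smallest size for Ccl28 and Ccl21b, at -0.43 and -0.10, and correction for position the smallest for Ccl21c.

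**Figure D5:**
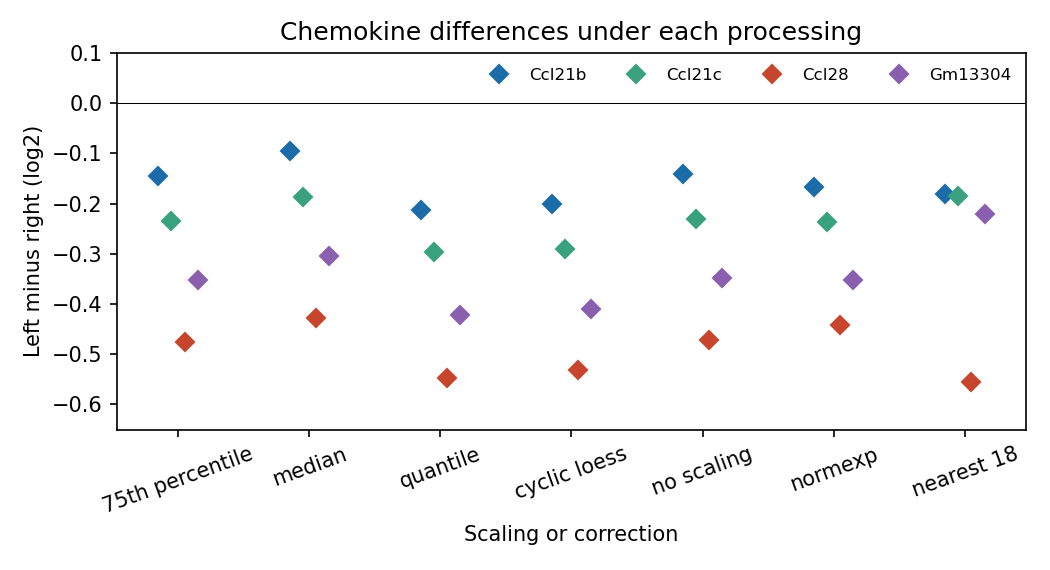
Left minus right log2 difference of the Ccl21b, Ccl21c, Ccl28 and Gm13304 probes (vertical axis) under scaling by the 75th percentile, by the median, quantile normalization, cyclic loess, no scaling, normexp background correction, and correction by the 18 nearest probes. No point reaches 0, and Ccl28 is lowest under each.

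Other chemokine genes could be followed in few cases. Of 49 chemokine ligand genes listed, 5 had a named probe: Ccl21b, Ccl21c, Ccl28, Gm13304 and Gm21953, the last listed for its place in the locus. All 5 were higher on the right, beside 47.5% of all probes above background on both arrays. The probes of Ccl21b, Ccl21c and Gm13304 may share targets, so the 5 are not separate measurements. The Gm21953 difference was only -0.014 after correction for position. Gm13305, of the same locus but not on the ligand list, had a difference of 0.02. Of 24 chemokine receptors, CCR7, CCR10 and CCR3 among them, 0 had a named probe. The same held for 10 kidney markers, 9 markers of lymphatic vessels and lymph nodes, and 6 markers of glandular epithelium. The labelled tissue, and the part that lymph node or lymphatic tissue had in these signals, could therefore not be read from marker genes and was not tested.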

How the data were processed

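RNA of a pool of left and a pool of right kidneys was measured on 1 Agilent array each. Labelled cRNA was made from rRNA-depleted RNA by random priming, per the labels' protocols. Per the file headers, the deposited intensity is Agilent Feature Extraction 11.0.1.1's processed signal, background-subtracted and detrended within each array, not normalized between arrays. The authors' series table holds the same intensity, equal in all 62513 rows to a relative tolerance of 1e-05, with column medians of 58.58 (left) and 60.96 (right). Its values are linear and uncentred. The array grid names build mm9, and RefSeq's GRCm38.p6 was used for names, gene order and promoters only. Of 123 probes with a RefSeq accession, 116 matched a symbol.

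Controls, 20 probes named as negatives and outlier spots were left out. Log2 intensity minus the 75th percentile (436.5 left, 435.4 right) was computed, and spots of a probe were averaged. Probes well above background on both arrays were compared. The number of arrays limits the precision. No p-value was computed, since each side has 1 array. The steps that count probes and take their spread were tested on simulated data. The simulated spread was the same at all levels, unlike that of these probes, and the planted changes were far past the limit. The simulation therefore checked the arithmetic only. Genes named are the chemokines, listed genes with a named probe, the 3 closest genes by level, the replicated genes nearest in brightness, and neighbours on the chromosome. Hmgcs1 and Nim1k were added as neighbours of Ccl28 after their place was seen. Members and lists were chosen with earlier results of these data known. Normexp used the median spot signal, as mean spot signals were not among the columns used here, with an offset of 50. The work used limma 3.58.1 in R 4.3.3, and Python 3.11.15 with pandas 2.3.3, numpy 2.4.6, matplotlib 3.10.9 and scipy 1.17.1.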

Additional observations from a re-analysis of the deposited data

How the results depend on the processing

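For Ccl21b, Ccl21c and Ccl28, each left minus right difference kept its sign and moved by less than the robust SD of probes of like brightness under normexp, correction by the 18 nearest probes, cyclic loess, quantile normalization, median scaling and the unscaled deposited table (18 of 18 values). Median scaling and the unscaled table shift the differences of all probes alike, by little, so those values could hardly have turned. Scaling by the median and quantile normalization keep the order within an array, so ranks could not show anything there. Under normexp the rank of Ccl28 on the right went from 5630 to 5784, the widest move of the 3 probes on either array under the settings run. All 3 stayed detected under both other limits. The number of probes at least 2-fold apart, which only sets the background, was 382. It was 102 with normexp, whose offset shrinks dim differences by construction, 105 where signal had to be 4 times that of the dimmest probe above background (23053 probes), and 5270 with no filter (59701 probes). At 1.5-fold it was 1808 and at 3-fold 97. No paired analysis was possible because each side has 1 array. Signal over background did not limit these bright probes, while a single spot per array and 1 pool per side did.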
